A study of Rattus norvegicus with 2 samples.

Results

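The glycogen synthase kinase 3 (GSK3) genes and the β-catenin destruction complex were examined, that is, the protein assembly that CHIR99021 acts on, together with 2 of the transcription factors that β-catenin binds. The 10 genes were Gsk3a, Gsk3b, Csnk1a1, Axin1, Apc, Ctnnb1, Btrc, Fbxw11, Tcf7l1 and Tcf7l2. A gene was taken where a probe set was annotated with that gene symbol alone. All 10 were found, each on 1 probe set, among 18166 named genes.

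Total RNA was hybridized to 2 whole-transcript Affymetrix arrays for rat, 1 of undifferentiated C6 glioma and 1 of small molecule-induced neurons (SMiNs). C6 is an established rat glial tumor line, and SMiNs were C6 cells kept for 35 days with the GSK3 inhibitor CHIR99021 at 20 μM and the adenylyl cyclase activator forskolin, which raises cAMP, at 100 μM. By the methods, C6 glioma was grown in DMEM with serum, whereas SMiNs were induced on Matrigel in a serum-free medium with N2, B27, BDNF and GDNF. The labels give the treatment and the serum medium for both samples, and the conditions of the methods were used here. Small molecules, medium, coating and time in culture cannot be told apart. Each condition had a single array and thus no replicate error, so no test was made and each difference describes this pair of arrays.

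In cells without a Wnt signal, the scaffolds Axin and APC hold β-catenin beside casein kinase 1α and GSK3. Casein kinase 1α phosphorylates β-catenin first and GSK3 adds the next phosphates. The phosphorylated protein is bound by β-TrCP, the receptor of an SCF ubiquitin ligase, and is destroyed by the proteasome. When Wnt or a GSK3 inhibitor stops this, β-catenin accumulates, enters the nucleus and turns TCF/LEF factors from repressors into activators. The control is exerted on the proteins, and the arrays measured transcripts only, not kinase activity, phosphorylation or β-catenin protein.

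The signals were lower in SMiNs for 9 of the 10 genes and higher for Gsk3a. With the values scaled by the median difference of 11 housekeeping genes, 6 were lower and 4 higher, since Apc, Axin1 and Tcf7l2 then changed sign. Of all named genes, 38% were lower by any amount and 39.3% were higher. Only Tcf7l1 and Gsk3b were lower by 2-fold or more, and none was higher by as much. The count of such lower genes was 3 after median centring and 0 with the median housekeeping difference removed, where Gsk3b was at -0.73 and Tcf7l1 at -0.75 on the log2 scale. Over all named genes, 8.12% were lower and 4.27% higher by 2-fold or more. Ctnnb1, which encodes β-catenin, lay just short of that threshold, at 1.99-fold lower.

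The signals of probe sets differ with their probes, so each gene was compared only with itself. A floor was taken from 1360 probe sets of olfactory and vomeronasal receptors, which these cells are assumed not to express, as their 95th percentile. Between C6 glioma and SMiNs, 59 of these receptor probe sets rose by 2-fold or more and 5 fell by as much. Their median log2 difference was 0. Large differences among probe sets assumed to be unexpressed were thus mostly upward, which limits what is read from dim genes given below as higher. The floor was a log2 signal of 4.79 for C6 glioma and 4.89 for SMiNs, and all 10 genes were above it on both arrays. The same value on both arrays was found for 19.9% of all probe sets, and for 0 of the 10 genes. Because equal values were so common, they are not read as evidence of an unchanged transcript. How the signals were summarized and normalized is not given in the sources used here.

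**Figure D1:**
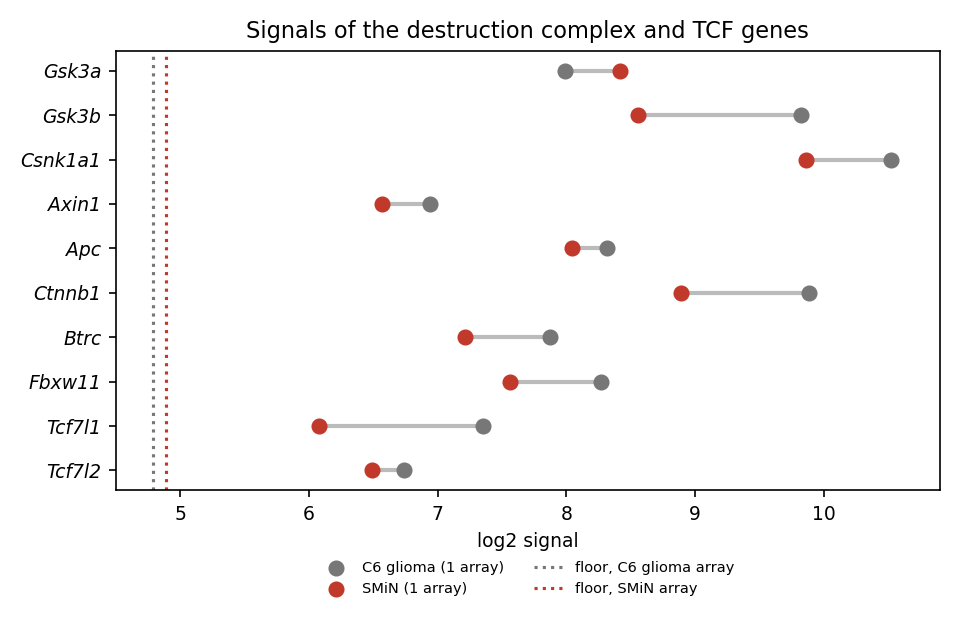
Log2 signal of each of the 10 genes in C6 glioma (grey, 1 array) and in SMiNs (red, 1 array), with the floor of each array as a dotted line. The red point lies left of the grey point for 9 genes and right of it for Gsk3a, and all points lie above the floors of 4.79 and 4.89. With the median housekeeping difference removed, Apc, Axin1 and Tcf7l2 would also be higher in SMiNs.

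The GSK3 genes encode the α and β forms of the kinase, both of which CHIR99021 inhibits. Gsk3b measured 9.82 in C6 glioma and 8.56 in SMiNs on the log2 scale, a difference of -1.26 or 2.40-fold lower. Gsk3a measured 7.99 in C6 glioma and 8.42 in SMiNs on the log2 scale, a difference of 0.43 or 1.35-fold higher. The paralogs thus differed in opposite directions in the deposited values and under the 5 other scalings run. All of these scalings but quantile normalization were uniform shifts, from -0.06 to 0.53, too small to change either sign. The log2 differences of the paralogs lay 1.69 apart, equal to a 3.23-fold change of the Gsk3a signal relative to that of Gsk3b. Among all named genes, 5.08% had a lower difference than Gsk3b and 16.5% had a higher one than Gsk3a. Probe sequences were not used here, so hybridization of one paralog to the probes of the other was not tested.

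The third kinase of the complex is casein kinase 1α, the product of Csnk1a1, which primes β-catenin for GSK3. Csnk1a1 measured 10.52 in C6 glioma and 9.86 in SMiNs on the log2 scale, 1.58-fold lower.

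The scaffold genes differed little. Axin1, the central scaffold, measured 6.94 in C6 glioma and 6.57 in SMiNs on the log2 scale, 1.29-fold lower. Apc, the tumor suppressor that binds β-catenin and Axin, measured 8.31 in C6 glioma and 8.04 in SMiNs on the log2 scale, 1.21-fold lower. Both were among the genes whose sign depended on the scaling, at 0.16 for Axin1 and 0.26 for Apc on the log2 scale with the median housekeeping difference removed.

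Ctnnb1 encodes the substrate of the complex, which also links cadherins to the actin skeleton. Its log2 signal was 9.88 in C6 glioma and 8.89 in SMiNs. The difference was -0.996, and -1.06 with each array centred on its median, where Ctnnb1 became the third gene past 2-fold. Among all named genes, 8.19% had a lower difference.

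Btrc and Fbxw11 encode the β-TrCP paralogs that recognise phosphorylated β-catenin. Btrc measured 7.87 in C6 glioma and 7.21 in SMiNs on the log2 scale, 1.58-fold lower. Fbxw11 measured 8.27 in C6 glioma and 7.56 in SMiNs on the log2 scale, 1.63-fold lower. Unlike the GSK3 genes, this pair differed in the same direction, and their log2 differences lay 0.04 apart.

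Tcf7l1, or TCF3, acts mostly as a repressor of Wnt target genes, and Tcf7l2, or TCF4, acts as a repressor or an activator. Tcf7l1 measured 7.36 in C6 glioma and 6.08 in SMiNs on the log2 scale, 2.42-fold lower. In the deposited values its difference was the largest of the 10 genes, by only 0.01 over Gsk3b, while Gsk3b lay beyond it after quantile normalization and Gsk3a with the median housekeeping difference removed. Tcf7l2 measured 6.74 in C6 glioma and 6.49 in SMiNs on the log2 scale, 1.19-fold lower. It was -0.05 on the log2 scale after quantile normalization and 0.28 with the median housekeeping difference removed, so its direction was not fixed by these arrays.

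The 10 genes had a median log2 difference of -0.66, 1.58-fold lower, against 0 over all named genes. Genes of similar brightness were also lower in SMiNs more often than higher. In the range of mean log2 signal spanned by the 10 genes, 6.61 to 10.19, lay 5287 named genes, with a median difference of -0.28. Of these, 64.7% were lower in SMiNs by any amount, 34.1% were at least 1.5-fold lower and 17.2% were at least 2-fold lower. Of the 10 genes, 9 were lower by any amount, 6 at least 1.5-fold lower (16.7% of all named genes were) and 2 at least 2-fold lower. The count past 2-fold was thus near the share of genes of this brightness, and nothing is read from it about the complex.

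**Figure D2:**
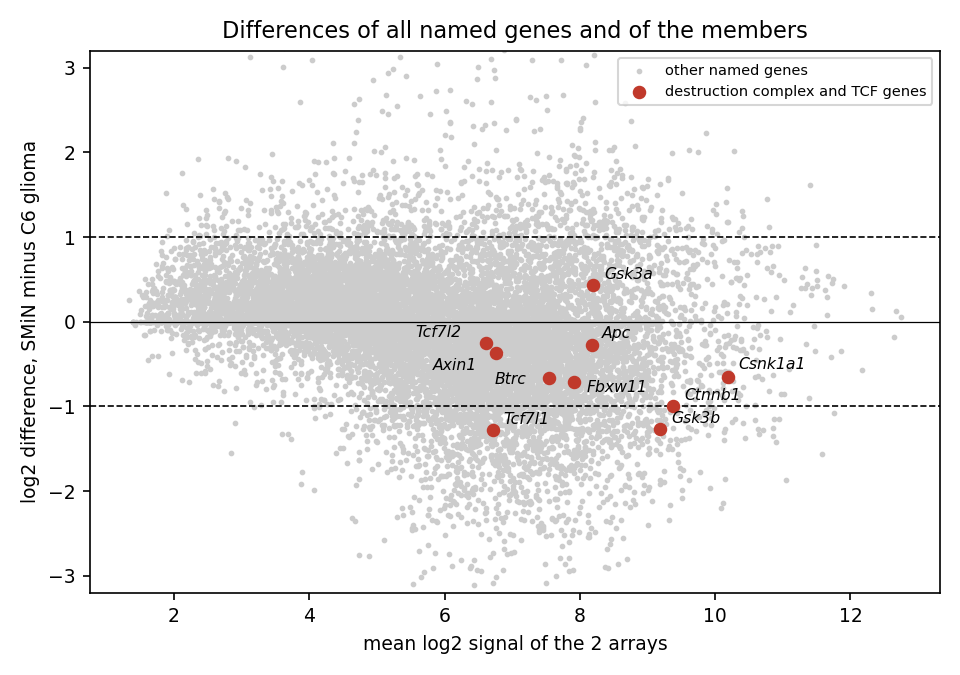
Log2 difference, SMiN minus C6 glioma, against mean log2 signal for all named genes (grey) and the 10 genes (red), with dashed lines at 2-fold; 64 genes lie outside the vertical range shown. The red points lie within the grey cloud, between -1.28 for Tcf7l1 and 0.43 for Gsk3a, at signals where the cloud lies more often below 0. With the median housekeeping difference removed, Apc, Axin1 and Tcf7l2 would lie above 0.

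Partners and paralogs of the complex were examined next. Of 28 such genes listed, 22 were measured, of which 1 was higher and 5 were lower in SMiNs by 2-fold or more (median -0.20). By comparison, 4.27% of all named genes were higher and 8.12% lower by as much. In the brightness range of the destruction complex genes, 17.2% of named genes were at least 2-fold lower. The lower count is thus not read as an excess. The counts were 2 higher and 4 lower after quantile normalization or centring on the median housekeeping signal. With the median housekeeping difference removed, they were 3 higher and 1 lower. The higher gene in the deposited values was Axin2, the Axin paralog that is itself switched on by β-catenin. Axin2 measured 7.42 in C6 glioma and 9.45 in SMiNs on the log2 scale, 4.08-fold higher, whereas Axin1 was 1.29-fold lower. Among all named genes, 0.578% had a higher difference than Axin2. Apc2, a paralog of Apc found mainly in neurons, measured 6.05 in C6 glioma and 6.92 in SMiNs on the log2 scale, 1.83-fold higher. The Axin and APC families therefore each held 1 paralog that was higher and 1 that was lower, except that with the median housekeeping difference removed Axin1 and Apc were also higher.

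Protein phosphatase 2A (PP2A) is found with Axin and APC and removes phosphates from several components. The list held a selection of PP2A subunit genes, of which Ppp2ca, for a catalytic subunit, was not measured. All 8 that were measured were lower in SMiNs in the deposited values, 4 of them by 2-fold or more (median -0.87). After quantile normalization or with the median housekeeping difference removed, 6 of the 8 were lower, and Ppp2r5b and Ppp2r5e were higher. With the median housekeeping difference removed, 0 of the 8 were 2-fold lower. Of named genes in the brightness range of the 10 genes, 64.7% were lower and 17.2% at least 2-fold lower. The regulatory subunit Ppp2r5a measured 7.82 in C6 glioma and 6.47 in SMiNs on the log2 scale, 2.54-fold lower. Ppp2r5d was 2.37-fold lower, and the scaffold subunits Ppp2r1b and Ppp2r1a were 2.29-fold and 2.09-fold lower. The other 4 were between 1.14-fold lower (Ppp2r5e) and 1.60-fold lower (Ppp2cb, a catalytic subunit). Daam1, a formin that binds Dishevelled, was 3.11-fold lower.

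Other casein kinase 1 genes and the Dishevelled genes differed by less than 2-fold. Csnk1d, which encodes casein kinase 1δ, was 1.76-fold lower. Csnk1e, for the ε form that phosphorylates Dishevelled, had the same log2 signal of 8.32 on both arrays. Of the Dishevelled genes, which relay the Wnt signal to the complex, Dvl1 and Dvl3 had equal values on both arrays and Dvl2 was 1.04-fold higher (lower after median centring).

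β-TrCP works as part of an SCF ligase, in which Skp1 holds the receptor, Cul1 is the scaffold and Rbx1 recruits the ubiquitin-conjugating enzyme. In contrast to Btrc and Fbxw11, these subunits were not lower in SMiNs, except Cul1 after median centring. Skp1 measured 10.21 in C6 glioma and 11.01 in SMiNs on the log2 scale, 1.74-fold higher. Rbx1 was 1.41-fold higher and Cul1 was 1.03-fold higher. Nedd8, the ubiquitin-like protein that activates cullins, measured 7.66 in C6 glioma and 8.66 in SMiNs on the log2 scale, with a difference of 0.997 that fell short of 2-fold. The cullin exchange factor Cand1 was 1.28-fold lower.

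The tankyrases mark Axin for destruction by the ubiquitin ligase RNF146. Tnks measured 7.77 in C6 glioma and 6.85 in SMiNs on the log2 scale, 1.90-fold lower. Tnks2 measured 9.01 in C6 glioma and 8.03 in SMiNs on the log2 scale, 1.98-fold lower. Rnf146 differed the other way, with 5.62 in C6 glioma and 6.57 in SMiNs, 1.94-fold higher. Of all 15 measured genes for the SCF ligase and Axin turnover, none was 2-fold different either way, 7 were higher, 7 were lower, and the median was 0. The split depended on the scaling, with 13 higher and 2 lower (median 0.53) when the median housekeeping difference was removed, and 5 higher and 10 lower after median centring. By 2-fold or more, 4 were then higher in the former and 1 was lower in the latter, and 2 were higher after quantile normalization or centring on the median housekeeping signal or on genes at or above the floor. Over all named genes, 4.27% were higher and 8.12% lower by 2-fold or more in the deposited values. With the median housekeeping difference removed, 3.13% were lower by as much. The share that was higher was not computed under the other scalings, so these counts are not read as an excess. The remaining genes of the list, Fbxw8, Usp7, Usp34, Siah1, Siah2, Jade1 and Usp9x, had log2 differences between -0.29 (Siah1) and 0.30 (Jade1).

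The other TCF/LEF factors and the cofactors of β-catenin in the nucleus held 24 measured genes of 26 listed. By 2-fold or more, 1 of these was higher and 2 were lower, where 4.27% of all named genes were higher and 8.12% lower. The median of the list was -0.37. The higher gene was Tle4, which was under the floor in C6 glioma, and with values set to the floor none was higher. The count of lower genes was 4 after median centring, 1 after quantile normalization and 0 with the median housekeeping difference removed. Lef1, a mostly activating member of the TCF family, measured 9.48 in C6 glioma and 8.68 in SMiNs on the log2 scale, 1.74-fold lower. Tcf7, the fourth member, had 7.17 and 7.06, 1.09-fold lower. All 4 TCF/LEF genes were thus lower in the deposited values, by 1.09-fold to 2.42-fold, although Tcf7 was higher after quantile normalization or either housekeeping scaling, and Tcf7l2 with the median housekeeping difference removed. The 2-fold lower genes were Tbl1xr1, a subunit of the NCoR corepressor complex that also binds β-catenin (2.41-fold), and the corepressor Ctbp1 (2.15-fold). Ctnnbip1, or ICAT, which blocks the binding of β-catenin to TCF, had log2 signals of 6.76 and 5.76, a difference of -0.9999 that fell short of 2-fold. Tle4, a Groucho corepressor of TCF factors, had a log2 signal of 5.49 in SMiNs and lay under the floor in C6 glioma, at 3.79, which makes it at least 1.62-fold higher.

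β-catenin also works at adherens junctions, where it joins cadherins to α-catenin. Of 14 measured junction genes, 2 were higher and 3 lower by 2-fold or more (median -0.22). The shares of all named genes were 4.27% higher and 8.12% lower. Cdh2, or N-cadherin, measured 10.17 in C6 glioma and 9.42 in SMiNs on the log2 scale, 1.68-fold lower. Ctnna1, which encodes αE-catenin, was 1.39-fold lower, and Ctnnd1, for the p120 catenin, was 1.91-fold lower. Jup, or plakoglobin, the closest relative of β-catenin, was 1.36-fold lower, and both Ctnna1 and Jup were higher with the median housekeeping difference removed. The 2-fold lower genes were Cdh13 (4.40-fold), a cadherin anchored by lipid without a catenin-binding tail, the actin linker Vcl (3.58-fold) and Ctnna3 (2.05-fold). Cdh6 and Cdh11 were below the floor in C6 glioma and at least 2.30-fold and 2.17-fold higher in SMiNs against it. The other members were Ctnnd2 (1.36-fold higher), Afdn (0.004 higher on the log2 scale) and Cdh3, Cdh1 and Cdh4, which had equal values, the last 2 below the floor.

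Other kinases that act on GSK3 or its substrates, and substrates of GSK3 outside the Wnt pathway, were lower in 16 of 22 measured genes and higher in 5, but lower in only 8 with the median housekeeping difference removed. Among them, 3 were lower and none was higher by 2-fold or more (median -0.43). Of all named genes, 38% were lower by any amount and 8.12% by 2-fold or more. In the brightness range of the 10 genes, these shares were 64.7% and 17.2%. With the median housekeeping difference removed, 0 of these 22 genes were lower and 1 was higher by 2-fold or more, and their median was 0.10. Dyrk1a, a priming kinase for GSK3, was 2.72-fold lower. Gys1, the muscle form of glycogen synthase and the substrate that gave GSK3 its name, measured 6.71 in C6 glioma and 5.29 in SMiNs on the log2 scale, 2.69-fold lower. Csnk2a2, a catalytic subunit of the priming kinase CK2, was 2.03-fold lower.

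**Figure D3:**
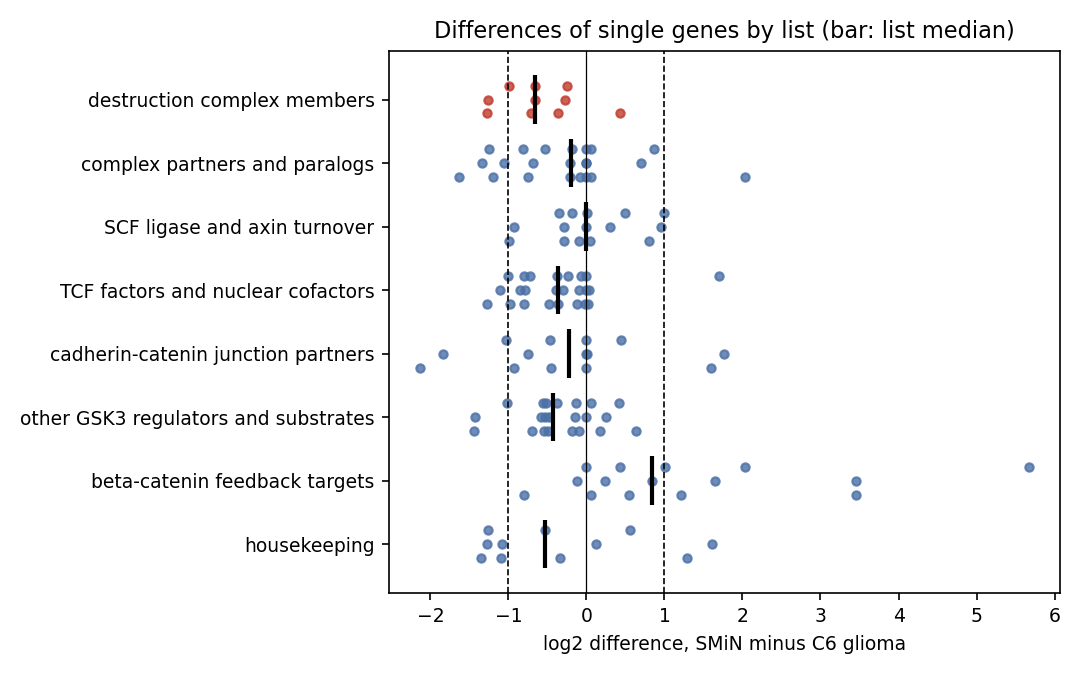
Log2 difference, SMiN minus C6 glioma, of each measured gene (points, spread vertically for legibility) in 8 gene lists, with the list median as a black bar and dashed lines at 2-fold. The destruction complex (red) has a median of -0.66, the housekeeping list -0.53 and the β-catenin feedback targets 0.84 (0.43 with values set to the floor), so removing the median housekeeping difference moves every point to the right by 0.53.

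Genes that β-catenin and TCF can switch on, many of them inhibitors of the pathway, were also examined. β-catenin activity was not measured, and what made these genes differ was not tested. Of 15 measured feedback targets, 7 were higher by 2-fold or more in SMiNs, none was lower by as much, and the median was 0.84. Over all named genes, 4.27% were higher and 8.12% lower by 2-fold or more. The list was chosen with earlier results of these data known. With values set to the floor, 5 were at least 2-fold higher and the median was 0.43. The median of 0.84 is the value of Apcdd1, which was below the floor on both arrays. Wif1, a secreted Wnt inhibitor, measured 5.04 in C6 glioma and 10.72 in SMiNs on the log2 scale, 51.1-fold higher. Notum, an enzyme that removes the lipid of Wnt proteins, had a log2 difference of 3.46. Nkd1, an inhibitor that binds Dishevelled, had log2 signals of 4.89 and 8.34, likewise a difference of 3.46. Tnfrsf19, or TROY, was 3.14-fold higher and Axin2 was 4.08-fold higher. The receptor Lgr6 and the ligase Rnf43, which removes Wnt receptors, were below the floor in C6 glioma and at least 1.86-fold and 1.88-fold higher against it. The targets did not all differ alike, as Nkd2 was 1.35-fold and Lgr5 1.18-fold higher, Lef1 and Tcf7 were lower as given above, Sp8 was higher by at least 1.21-fold against the floor, and Sp5, Apcdd1 and Dkk1 were below the floor on both arrays.

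The promoter windows of the genes were compared in sequence as a description only. In the deposited values most of the 10 genes were lower while Gsk3a and Axin2 were higher, and a shared control was not tested. The windows are 300 bases from RefSeq on the GRCr8 build, 250 before and 50 after 1 annotated start of each gene, and other starts were not examined. Of the 10 genes, 9 matched by symbol, and 4 windows are shown, for the GSK3 pair, for Tcf7l1 as the other gene past 2-fold in the deposited values and for Axin2 as the higher paralog of Axin1. The motifs below were searched on both strands and are shown in capitals, namely the TCF/LEF motif CTTTGAT, the short form TGACG of the cAMP response element (the full element TGACGTCA holds it) and the GC box GGGCGG. Gsk3a is at chr1:89953465-89953764 on the minus strand, Gsk3b at chr11:76153200-76153499 on the minus strand, Tcf7l1 at chr4:106403372-106403671 on the minus strand and Axin2 at chr10:94398535-94398834 on the plus strand.
Gsk3a: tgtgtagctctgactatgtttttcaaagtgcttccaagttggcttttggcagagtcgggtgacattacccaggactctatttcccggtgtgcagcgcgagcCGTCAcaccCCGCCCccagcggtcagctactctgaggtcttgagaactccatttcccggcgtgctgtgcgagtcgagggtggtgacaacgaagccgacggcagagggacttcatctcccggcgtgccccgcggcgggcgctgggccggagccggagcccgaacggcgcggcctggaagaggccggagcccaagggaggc
Gsk3b: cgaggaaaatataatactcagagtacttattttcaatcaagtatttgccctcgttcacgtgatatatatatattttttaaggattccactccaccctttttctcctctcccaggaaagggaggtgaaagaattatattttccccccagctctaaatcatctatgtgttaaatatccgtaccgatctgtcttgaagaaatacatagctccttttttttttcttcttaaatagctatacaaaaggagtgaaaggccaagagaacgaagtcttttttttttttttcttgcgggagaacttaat
Tcf7l1: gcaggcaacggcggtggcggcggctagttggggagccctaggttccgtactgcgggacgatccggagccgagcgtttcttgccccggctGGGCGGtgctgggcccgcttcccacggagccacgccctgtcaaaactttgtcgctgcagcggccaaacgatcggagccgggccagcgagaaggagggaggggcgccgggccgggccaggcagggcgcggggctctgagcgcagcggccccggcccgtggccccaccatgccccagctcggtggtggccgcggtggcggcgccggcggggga
Axin2: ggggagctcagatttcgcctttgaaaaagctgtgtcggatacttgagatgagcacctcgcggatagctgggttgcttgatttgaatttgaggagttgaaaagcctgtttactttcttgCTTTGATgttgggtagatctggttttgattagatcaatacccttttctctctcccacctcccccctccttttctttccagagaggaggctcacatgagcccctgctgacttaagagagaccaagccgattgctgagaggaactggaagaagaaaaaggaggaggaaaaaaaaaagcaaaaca

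No TCF/LEF motif was found in the 9 windows, against 3.63% of all 33469 windows, 3.08% of those of named genes and 4 of 13 windows of the feedback targets, those of Axin2, Nkd1, Sp5 and Tcf7. With shares near 3%, 0 of 9 is not read as a lack of the motif. Of the carriers, Axin2 and Nkd1 were higher, Tcf7 was lower and Sp5 was below the floor on both arrays. The windows of Wif1, Tnfrsf19, Lgr6 and Rnf43, which were higher, and of Lef1, which was lower, held none. Notum and Lgr5 had no window. The motif of Axin2 began 132 bases before the start. The short form was found in 5 of the 9 windows, against 21.2% of all windows and 24.8% of those of named genes, and the full element in 0, against 1.83% and 2.33%. The short form was present in the windows of Gsk3a, Ctnnb1, Csnk1a1, Btrc and Tcf7l2, which held the gene that was higher as well as genes that were lower, and was not found in those of Gsk3b, Tcf7l1, Fbxw11 and Apc. The GC box was found in 6 of the 9, against 33.1% of all windows and 47.3% of those of named genes. The short form and the GC box each hold a CpG. Of the windows with the short form, those of Gsk3a, Csnk1a1, Btrc and Tcf7l2 held 27 to 36 CpG and that of Ctnnb1 held 7. The shares were not matched for CpG, so these counts are not read as an excess. The windows held 64.0% G and C and 27 CpG dinucleotides for Gsk3a, and 34.7% and 7 for Gsk3b, where named genes had a median of 15 CpG. The windows of Gsk3b, Ctnnb1 and Apc, with 7, 7 and 4 CpG, may lie at a minor start and not at the main promoter. Their composition and their motifs, found or missing, are thus not read as properties of those genes. These matches describe the letters in 1 window per gene and no binding was measured.

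Values that moved with the condition are given beside these results. Of 11 housekeeping genes measured, 5 were at least 2-fold lower and 2 at least 2-fold higher in SMiNs, with differences from -1.35 to 1.61. Of 11 glioma and glial precursor markers, 7 were at least 2-fold lower, and the mean log2 signal of the list was 8.40 in C6 glioma and 7.09 in SMiNs. S100b went the other way, 1.72-fold higher, and Olig2 had the same value on both arrays. Over all named genes, 8.12% were lower and 4.27% higher by 2-fold or more. Of 14 neuron markers, 1 was at least 2-fold higher (Tubb3), none was at least 2-fold lower, and 6 were below the floor on both arrays, among them Stmn2, Dcx and Syt1. By any amount, 11 were higher, Map2 by 1.11-fold, and 3 were lower, namely Ncam1 (1.76-fold), Nefm and Rbfox3. The mean of this list was 5.12 in C6 glioma and 5.45 in SMiNs. Of 7 microglia and macrophage markers, 5 were below the floor on both arrays, as were 2 of 6 fibroblast markers, 2 of 4 endothelial markers and 1 of 5 oligodendrocyte markers. Of the fibroblast markers, 3 were higher and 2 lower, with a median of 0.19, and those past 2-fold were Col1a1 and Pdgfrb, both lower. Of the oligodendrocyte markers, 2 were higher and 2 lower, with a median of 0, and only Cnp, which was lower, was past 2-fold. In a bulk sample, fewer cells of a type and less RNA per cell cannot be told apart, and the part of cell composition in the differences of the 10 genes was not tested.

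**Figure D4:**
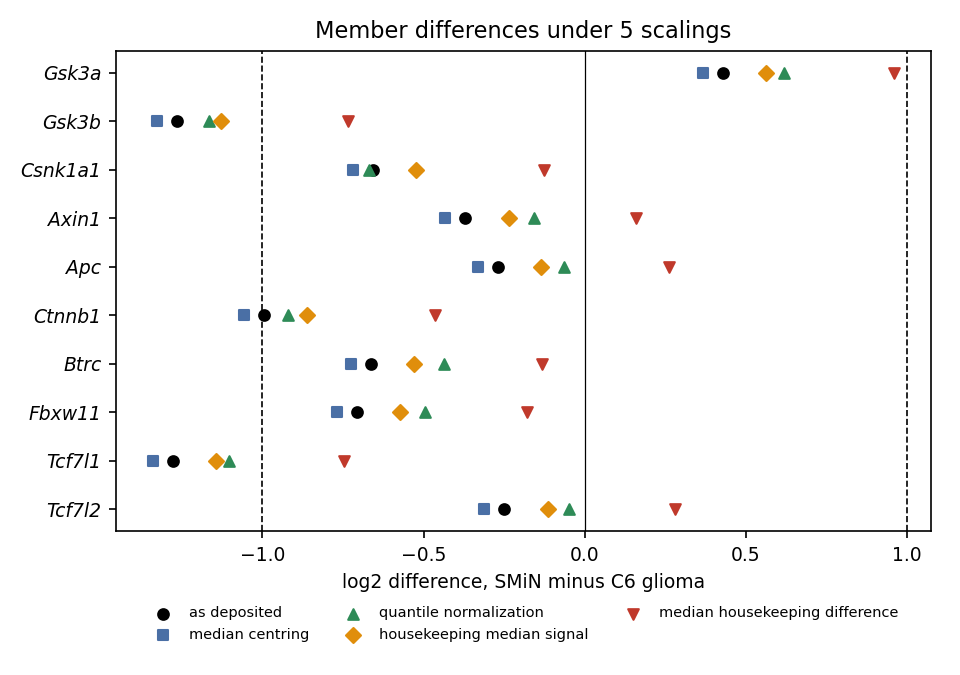
Log2 difference, SMiN minus C6 glioma, of the 10 genes as deposited and under 4 other scalings of the arrays, with dashed lines at 2-fold. Gsk3a stays right of 0 and Gsk3b, Ctnnb1, Csnk1a1, Btrc, Fbxw11 and Tcf7l1 stay left of 0 in all 5, while Apc, Axin1 and Tcf7l2 cross 0 when the median housekeeping difference of -0.53 is removed.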

How the data were processed

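Total RNA was amplified and labeled with whole-transcript kits, hybridized to Affymetrix arrays and analysed by the authors with GeneChip Command Console Software. The table they deposited gives a log2 signal for each of 36685 probe sets and was used unchanged, with the log base inferred from its values. Of the probe sets, 18511 had 1 gene symbol in the platform annotation, 575 had several and 17599 are unnamed here. Where a gene had several, the brightest on average was used. The 10 genes and all lists were chosen with earlier results of these data known. All 10 genes are named, as are all genes of pathway lists of 16 or fewer, and in longer lists those at least 2-fold different and the closest relatives of the 10. Dixdc1, Amer1 and other list members enter counts only. With 1 array per condition no test was possible, and the number of arrays limits the precision. Counting of calls was tested on simulated data. Alternatives were median centring, quantile normalization, housekeeping centring, the floor, other probe set choices and a 1.5-fold threshold. Python 3.11.15, numpy 2.4.6, pandas 2.3.3 and matplotlib 3.10.9 were used.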

Additional observations from a re-analysis of the deposited data

How the results depend on the processing

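No paired analysis was possible because each condition had 1 array. Shifts under log2 of 1.5 (0.58) were taken as no move, since no spread exists. Gsk3a kept its higher signal, and Gsk3b, Ctnnb1, Csnk1a1, Btrc, Fbxw11 and Tcf7l1 their lower one, under the 5 other scalings. All of these scalings but quantile normalization were uniform shifts, from -0.06 to 0.53. Such shifts were too small to change the sign of any of these genes, so nothing is read from their kept direction. The floor and the probe set choices could not move the 10 genes, each with 1 probe set above the floor. Added after seeing the data were scaling by the median housekeeping difference, centring on genes at or above the floor, and the background of similar mean signal. The planned housekeeping centring, on the median housekeeping signal of each array, shifted the median of all genes by 0.13, quantile normalization by -0.06, and scaling by the median housekeeping difference by 0.53. Quantile normalization moved the median of the 10 genes the other way, from -0.66 to -0.47. Scaling by the median housekeeping difference left 0 of the 10 genes at least 2-fold lower, against 2 as deposited and 3 with median centring, and moved their median from -0.66 to -0.13. With a 1.5-fold threshold 6 of the 10 were lower.

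Counts in the pathway lists moved by over 1.5 times as follows. With median centring, 1 gene of the SCF ligase and Axin turnover and 4 TCF factors and cofactors were at least 2-fold lower. Quantile normalization and centring on the median housekeeping signal each gave 2 higher complex partners, 2 higher SCF ligase genes and 1 lower TCF cofactor. Centring on genes at or above the floor gave 2 higher SCF ligase genes, and setting low values to the floor left 0 higher TCF cofactors. With a 1.5-fold threshold, complex partners had 8 lower and 3 higher, SCF ligase genes 2 lower and 3 higher, TCF cofactors 9 lower, junction genes 5 lower, feedback targets 1 lower, and other GSK3 regulators and substrates 5 lower and 1 higher. Scaling by the median housekeeping difference gave complex partners 1 lower and 3 higher, SCF ligase genes 4 higher, TCF cofactors 0 lower, and GSK3 regulators and substrates 0 lower and 1 higher. The other 187 alternative values did not move by these measures, among them those that an alternative could not change. The largest uniform shift, 0.53, was under the limit of 0.58, so no centring could move a log2 difference by this measure. The 187 include the differences of Apc, Axin1 and Tcf7l2, which changed sign with the median housekeeping difference removed. The count is thus not read as stability of the results. The share of genes at least 2-fold lower was 8.12% of all named genes and 12.9% of those at or above the floor.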
